A study of Drosophila melanogaster with 10 samples.

Results

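The vacuolar H+-ATPase (V-ATPase) is the rotary proton pump that acidifies lysosomes, endosomes and synaptic vesicles and drives ion transport across epithelia such as the fly Malpighian tubule. Its V1 sector, in the cytosol, hydrolyses ATP on a head of A and B subunits, and its V0 sector, in the membrane, carries protons through a ring of c subunits beside subunit a. The pump on the lysosome also serves as a docking site for the Ragulator and Rag GTPases that recruit TORC1. In Drosophila most subunits have 1 gene that is used in nearly all cells and further paralogs that are used in few tissues, several of them in the testis.

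The members described here are the genes whose symbol begins with Vha, which number 32 of the 17563 genes in the deposited files. Of these, 14 were classed by hand, from textbook knowledge, as the widely used gene of their subunit and 18 as other paralogs. The levels of subunit A do not follow this split. Vha68-1, classed as a paralog, had a median of 89.5 RPKM, and Vha68-2, classed as the widely used gene, 67.2 RPKM. RNA was measured in thoraces of adult males, whose bulk is flight muscle with some fat body. The study's methods for RNA describe thoraces freed of head, wings and abdomen, with the gut taken out. Control flies carried esg-Gal4, tub-Gal80ts and UAS-GFP over a wild-type chromosome. Esg>yki flies carried the same transgenes with UAS-yki-act, an active form of the growth regulator Yorkie driven by esg in the progenitor cells of the gut. GAL80ts blocks GAL4 at 18 °C, so that both genotypes, grown at 18 °C and held as adults at 29 °C until day 14, expressed their transgenes until they were returned to 18 °C. Control was sampled at day 2, 14 and 38 and Esg>yki at day 2, 8, 14, 20, 26, 32 and 38, with 1 library each from 8 to 10 pooled thoraces.

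Each of the 10 conditions had 1 library, so no difference below has a replicate check and no p-value is given. Libraries held 14615109 to 38208955 reads on genes, and the members took 0.335 to 0.451% of them. Levels are given as RPKM, reads divided by the length of the merged exons and by the library's total of reads on genes, which allows genes of different length to be compared. A log2 ratio compares the RPKM of 2 libraries, with a 95% exact Clopper-Pearson interval that covers counting error only. Reads of mitochondrial genes made up 46.9% of the Esg>yki library of day 14 and 24.3 to 32.5% of the other libraries. For the members, its values are also given with other scalings where these change a count. Levels and ranks of single genes are given by total reads only. A lowest or highest level in that library was not checked with other scalings. Summed markers of flight muscle ranged from 3581 to 11248 RPKM, with every one of the 10 marker genes of the muscle list detected. As the tissue was taken whole, fewer cells of a type and less RNA per cell cannot be told apart.

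Of the 32 genes, 19 reached 10 RPKM in at least 1 library, and these included all of the 14 widely used genes. The other 5 were the A subunit paralog Vha68-1, the D paralog Vha36-3, the a paralog Vha100-1, which is best known from neurons, and the e paralogs VhaM9.7-a and VhaM9.7-c. The remaining 13 paralogs stayed under 10 RPKM in every library, and 1 of them, Vha16-2, had 0 reads in all of them. That allows a level of up to 0.345 RPKM in the shallowest library, if reads of overlapping genes were kept. On the opposite strand, asRNA:CR46049 overlaps 84.5% of the exons of Vha16-2, and a strand setting for the counting is not given.

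**Figure D1:**
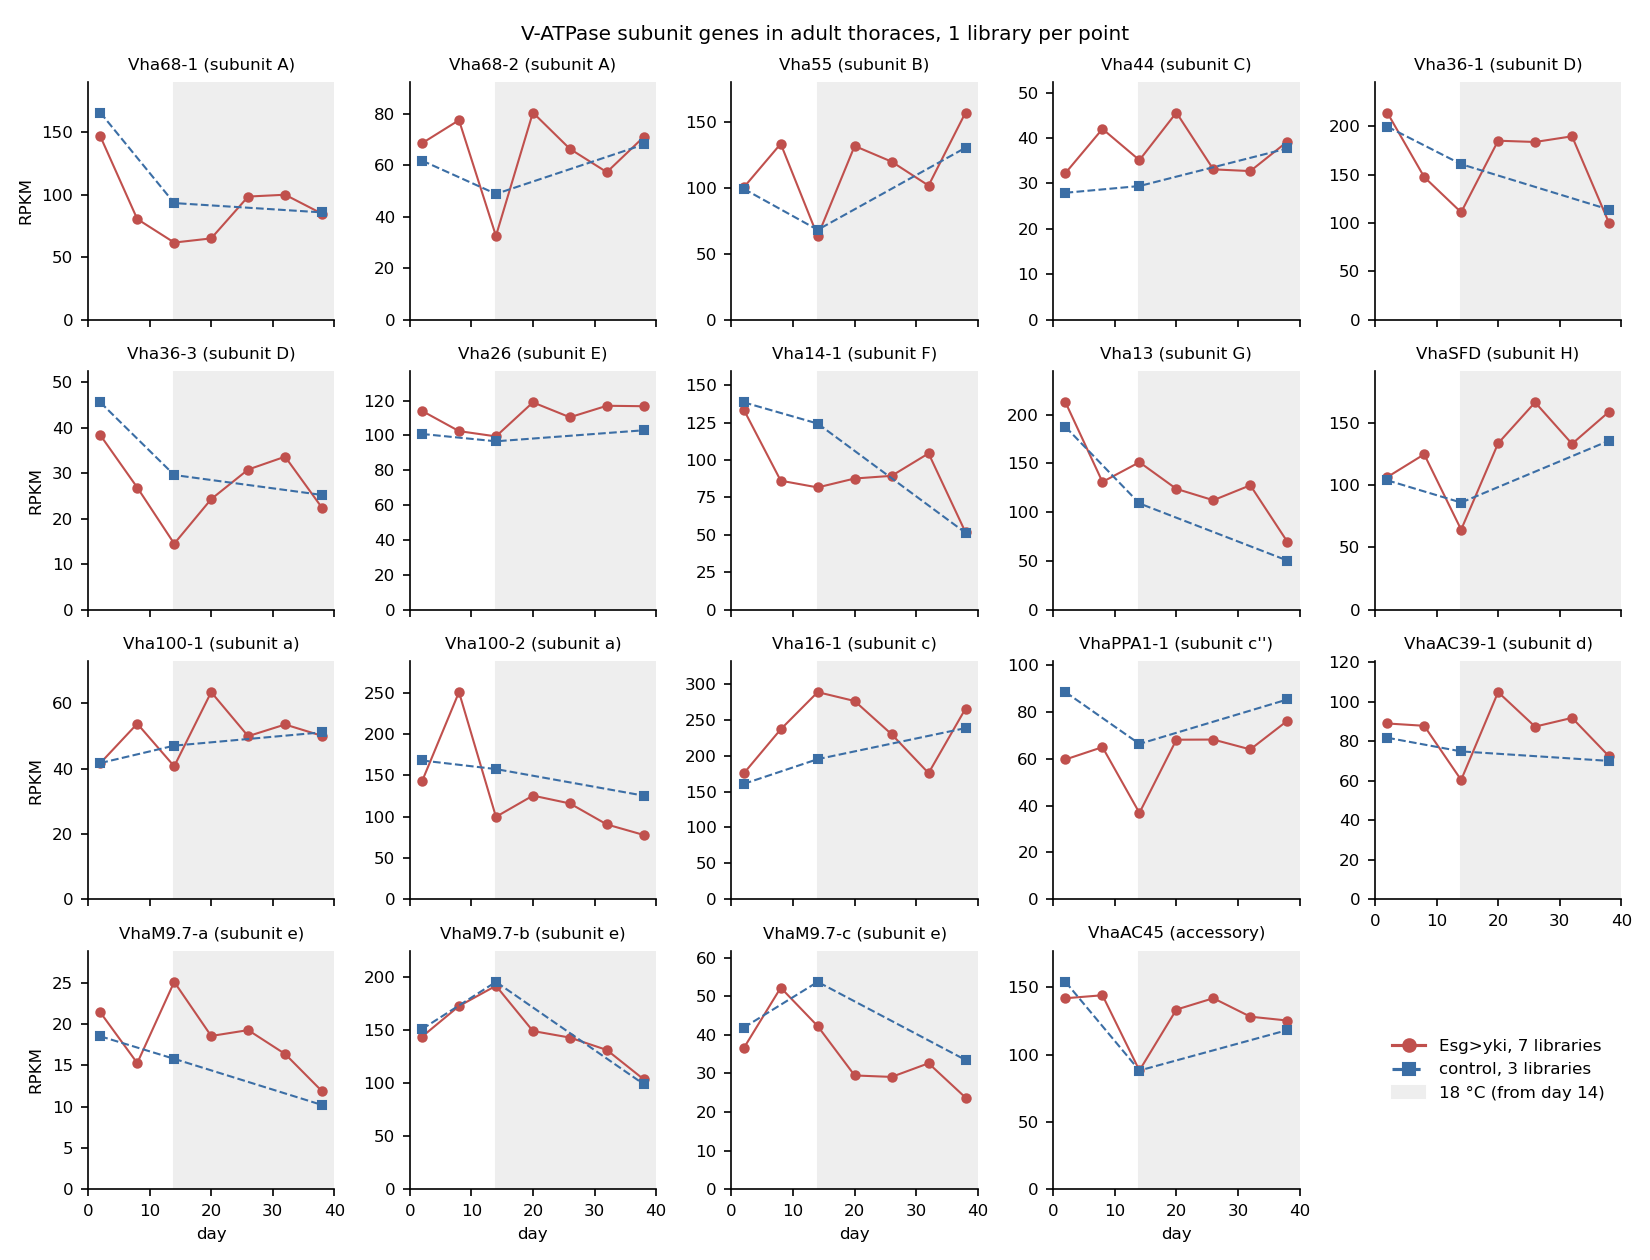
RPKM (vertical axis, from 0 in each panel) against day for the 19 V-ATPase genes with 10 RPKM or more in some library, 1 library per point: circles, 7 Esg>yki libraries; squares, 3 control libraries; grey, the period at 18 °C. Vha68-2, Vha55, VhaSFD and VhaPPA1-1 have their lowest Esg>yki point at day 14 and are higher again at day 20, while Vha16-1 has its highest point, 288 RPKM, at day 14.

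The A subunit, which holds the catalytic sites, was supplied by 2 genes. Vha68-1 stood at 166, 93.2 and 85.8 RPKM in control thoraces at day 2, 14 and 38. In Esg>yki thoraces it stood at 147, 80.5, 61.7, 65.0, 98.4, 99.9 and 84.7 RPKM at day 2, 8, 14, 20, 26, 32 and 38. Both genotypes had their highest level at day 2, and the Esg>yki libraries of day 8, 14, 20 and 38 lay below every control library.

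Vha68-2 stood at 61.7, 48.8 and 68.0 RPKM in control at day 2, 14 and 38. Esg>yki thoraces gave 68.5, 77.4, 32.5, 80.4, 66.3, 57.3 and 71.0 RPKM from day 2 to day 38. Its lowest level of all 10 libraries was that of Esg>yki at day 14, and the library taken 6 days later was the highest. The A subunit genes are close relatives, and how reads that match both were assigned is not given in the sources used here, so the split between them is uncertain.

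Vha55 encodes subunit B, the partner of A in the head. It stood at 99.3, 68.2 and 130.5 RPKM in control at day 2, 14 and 38. The Esg>yki levels were 100.4, 133, 63.5, 132, 119.9, 102 and 157 RPKM from day 2 to day 38. Day 14 was the lowest library in each genotype, and day 38 the highest.

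VhaSFD encodes subunit H, which is needed for an active pump. It stood at 104, 86.1 and 136 RPKM in control at day 2, 14 and 38. The 7 Esg>yki libraries gave 107, 125, 64.3, 134, 167, 133 and 159 RPKM from day 2 to day 38. Day 14 was again the lowest library of each genotype.

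Subunit D forms the central shaft with subunit F. Its main gene, Vha36-1, stood at 199.6, 161 and 114 RPKM in control at day 2, 14 and 38, and at 214, 148, 111, 185, 184, 189.6 and 100.1 RPKM in Esg>yki from day 2 to day 38. Its paralog Vha36-3 stood at 45.6, 29.6 and 25.2 RPKM in control and at 38.4, 26.8, 14.5, 24.3, 30.8, 33.6 and 22.4 RPKM in Esg>yki at the same days. Vha36-3 was lowest in Esg>yki at day 14, at 14.5 RPKM, below all 3 control libraries, whereas Vha36-1 was lowest in Esg>yki at day 38.

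Vha14-1, the F subunit gene, stood at 138, 124 and 51.3 RPKM in control at day 2, 14 and 38, and at 134, 86.1, 81.6, 87.6, 89.4, 104 and 51.6 RPKM in Esg>yki from day 2 to day 38. Vha13, which encodes subunit G of the outer stalks, stood at 187, 109 and 50.3 RPKM in control and at 213, 131, 151, 124, 112, 128 and 69.7 RPKM in Esg>yki at those days. Both were lowest at day 38 in each genotype, and Vha13 had the widest range of the 19 genes, 4.23-fold between the highest and the lowest library.

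Vha26, the E subunit that pairs with G in the stalks, had the narrowest range of the 19 genes. Its highest level, in Esg>yki at day 20 with 119 RPKM, was 1.23-fold above its lowest, in control at day 14 with 96.6 RPKM. Vha44, the C subunit that joins the stalks to subunit a, had the lowest median level of the widely used genes and stood at 28.0 to 45.6 RPKM. Hmgs, on the opposite strand, overlaps 3.68% of its exons, and a strand setting for the counting is not given in the sources used here.

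In the membrane sector, Vha16-1 encodes the c subunit of the proton-carrying ring and had the highest median level of all members, 233 RPKM. It stood at 161, 195 and 238 RPKM in control at day 2, 14 and 38. In Esg>yki it stood at 175, 237, 288, 276, 229.7, 176 and 265 RPKM from day 2 to day 38. By total reads, it was highest in Esg>yki at day 14, the library in which the A, B, H and c'' genes were at their lowest of all 10. These ranks were not taken with other scalings.

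Vha100-2 was the leading gene of subunit a, through which protons enter and leave the ring. It stood at 168, 157 and 125 RPKM in control at day 2, 14 and 38. Esg>yki thoraces gave 143, 251, 99.7, 125, 116, 90.5 and 77.8 RPKM from day 2 to day 38. The highest of the 10 levels was that of Esg>yki at day 8, and from day 20 on the Esg>yki levels declined to 77.8 RPKM, the lowest.

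Vha100-1, the a subunit known for its part in synaptic vesicles, moved little. It stood at 41.7, 47.0 and 51.1 RPKM in control at day 2, 14 and 38 and at 41.7, 53.7, 40.7, 63.4, 49.9, 53.5 and 49.99 RPKM in Esg>yki from day 2 to day 38. Its lowest and highest libraries, Esg>yki at day 14 and day 20, differed 1.56-fold. The 6 neuron markers summed to 49.9, 65.8 and 78.0 RPKM in control and 51.6, 82.8, 98.1, 96.6, 67.9, 67.8 and 75.5 RPKM in Esg>yki, and their part in the level of Vha100-1 was not tested.

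VhaPPA1-1, the c'' subunit of the ring, stood at 88.5, 66.4 and 85.3 RPKM in control at day 2, 14 and 38. The Esg>yki levels were 59.7, 65.0, 36.9, 68.2, 68.2, 64.0 and 76.2 RPKM from day 2 to day 38. Each Esg>yki level was below the control level of the same day, and day 14 was the lowest. VhaAC39-1, the d subunit that links the ring to the shaft, ranged from 60.4 RPKM in Esg>yki at day 14 to 105 RPKM in Esg>yki at day 20.

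The small e subunit had 3 genes that reached 10 RPKM, while VhaM9.7-d had at most 3 reads in any library. VhaM9.7-b stood at 151, 196 and 99.1 RPKM in control at day 2, 14 and 38 and at 144, 173, 192, 149, 143, 131 and 104 RPKM in Esg>yki from day 2 to day 38, with the highest library of each genotype at day 14. VhaM9.7-c ranged from 23.7 to 53.7 RPKM and VhaM9.7-a from 10.2 to 25.1 RPKM. VhaM9.7-a was highest in Esg>yki at day 14, whereas VhaM9.7-c was highest in control at day 14.

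VhaAC45 encodes the accessory subunit Ac45, which assists assembly of V0. It stood at 154, 88.1 and 118 RPKM in control at day 2, 14 and 38 and at 142, 144, 88.2, 133, 142, 128 and 125 RPKM in Esg>yki from day 2 to day 38. Day 14 was the lowest library of each genotype, at nearly the same level in both by total reads.

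A ratio of 2 subunits within a library does not depend on the scaling between libraries. The summed level of the c genes over that of the A genes, as a log2 ratio, was -0.50, 0.46 and 0.63 in control at day 2, 14 and 38. In Esg>yki it was -0.29, 0.59, 1.61, 0.92, 0.48, 0.16 and 0.77 from day 2 to day 38. In both genotypes the ratio was below 0 at day 2 and above 0 in every later library. The highest value was that of Esg>yki at day 14, and the ratio was lower in each of the 3 libraries that followed. The main genes of these subunits have similar exon lengths, 3077 bases for Vha16-1 and 2677 and 2759 bases for Vha68-1 and Vha68-2. The log2 ratio of A to B went from 1.19 to 0.24 in control and from 1.10 to -0.01 in Esg>yki between day 2 and day 38; A was thus more than 2-fold above B at day 2 in both genotypes and level with it in Esg>yki at day 38.

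**Figure D2:**
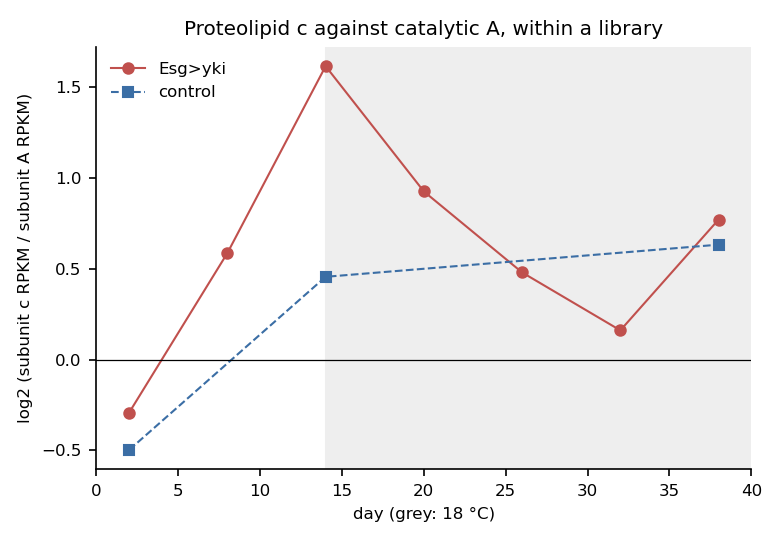
Log2 ratio of the summed RPKM of the c genes to that of the A genes (vertical axis) against day, 1 library per point: circles, 7 Esg>yki libraries; squares, 3 control libraries; grey, the period at 18 °C. Day 2 lies below 0 in both genotypes and Esg>yki at day 14 is the highest point, at 1.61.

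The paralogs of a subunit were also compared within each library, as the share of the subunit's summed RPKM. Vha68-1 held 72.8%, 65.5% and 55.8% of subunit A in control at day 2, 14 and 38. From day 2 to day 38 of Esg>yki it held 68.2%, 50.9%, 65.4%, 44.7%, 59.7%, 63.6% and 54.4%. Day 20 was the single library in which Vha68-2 held the larger share. At day 14 the shares of the 2 genotypes were alike, while both genes were lower in Esg>yki.

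Vha100-1 held 19.8%, 22.6% and 28.9% of subunit a in control at day 2, 14 and 38. In Esg>yki its share was 22.2%, 17.6%, 28.9%, 33.5%, 30.0%, 37.1% and 39.1% from day 2 to day 38. It was lowest at day 8, where Vha100-2 peaked, and highest at day 38, where Vha100-2 was lowest. At day 38 the exact interval of the share of reads was 38.4 to 40.8% in Esg>yki and 28.4 to 30.2% in control.

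Vha36-3 held between 11.5% and 18.6% of subunit D, with its lowest shares in Esg>yki at day 14 and day 20. Within subunit e, VhaM9.7-b held 69.4% to 75.6%, VhaM9.7-c 14.9% to 23.4% and VhaM9.7-a 5.94% to 10.6%, so that their order was the same in all 10 libraries. In the other subunits with paralogs (F, c, c'' and d) the widely used gene held at least 99.1% in every library.

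**Figure D3:**
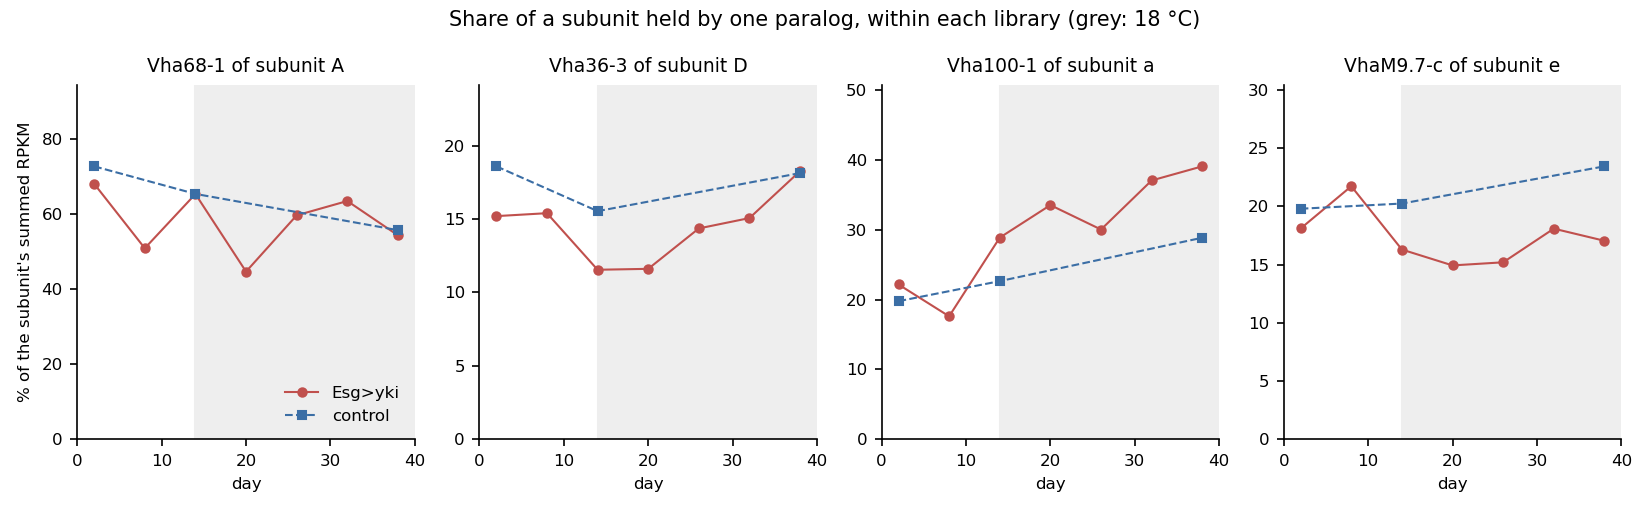
Share of a subunit's summed RPKM held by 1 paralog within each library (vertical axis, percent, from 0) against day, for Vha68-1, Vha36-3, Vha100-1 and VhaM9.7-c: circles, 7 Esg>yki libraries; squares, 3 control libraries; grey, the period at 18 °C. The share of Vha100-1 lies between 17.6% and 39.1% and is highest in Esg>yki at day 38.

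The 13 low paralogs were close to silent in the thorax, with 3 kinds of exception that each rested on 1 or few libraries. The a paralog Vha100-5 has 18.1% of its exons overlapped by asRNA:CR44144 on the opposite strand. It had 350 reads, 3.20 RPKM, in Esg>yki at day 2 and 0 to 9 reads in each of the other 9 libraries. In that library the 11 midgut markers, mostly digestive enzymes, summed to 144 RPKM with 7 of them at 1 RPKM or more and only Jon25Bi at 0 reads, against 2.63 to 16.0 RPKM in the others. The 10 Malpighian tubule markers summed to 76.9 RPKM there, within the 33.0 to 90.7 RPKM of the other libraries, and 8 of them reached 1 RPKM in that library and in Esg>yki at day 26, where Vha100-5 had 9 reads, against 4 to 6 elsewhere. Of these markers Uro and salt, chosen after their values were seen, were at 4.40 and 3.32 RPKM at day 2 and at 4.09 and 4.55 RPKM at day 26. The part of these tissues in the level of Vha100-5 was not tested.

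Vha100-4, whose gene lies beside Vha100-2 on 3R, had 105, 256 and 29 reads in control at day 2, 14 and 38. In Esg>yki it had 46, 71, 44, 13, 17, 26 and 4 reads from day 2 to day 38. Both genotypes had fewer reads at day 38 than at day 2, and control at day 14, with 3.02 RPKM, was the one library above 2 RPKM. The midgut markers summed to 8.12 RPKM in that library and to 13.6 RPKM in control at day 2. Their highest sum, 144 RPKM, was that of Esg>yki at day 2, where Vha100-4 had 46 reads. In control at day 14 the 10 testis markers summed to 7.60 RPKM, against 1.01 to 1.94 RPKM in the other libraries. The part of these tissues in the level of Vha100-4 was not tested.

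Of the 3 low paralogs found mainly in control at day 14, Vha68-3, an A paralog, had 28 reads there and at most 5 elsewhere. Vha100-3 had 12 reads there and 0 elsewhere, and Vha36-2 had 5 there and 1 in Esg>yki at day 2. All 10 testis markers, whose sums are given above, had reads in that library, and 4 to 6 of them had 0 reads in each of the others. The part of testis RNA in these reads was not tested. The other low members, Vha14-2, Vha16-3, Vha16-4, Vha16-5, VhaPPA1-2, VhaAC39-2 and VhaM9.7-d, had 0 to 14 reads in every library.

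Low and high members stand next to each other in the genome. On 2L, Vha68-2 (12974322 to 12978607, plus strand) reached 80.4 RPKM, and its neighbour Vha68-3 (12978786 to 12981293, plus strand) reached 0.369 RPKM. On 3R, Vha100-4 (18386841 to 18389805) precedes Vha100-2 (18390323 to 18399169), and VhaPPA1-2 (14899606 to 14900277) precedes VhaPPA1-1 (14902330 to 14904061), all on the minus strand. VhaPPA1-2 had at most 1 read in every library. Coordinates are those of the Ensembl annotation of the Release 6 assembly.

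The change during tumor growth was taken as day 14 against day 2 within each genotype, over genes that reached 2 RPKM in one or both libraries. In Esg>yki both A genes and the D paralog Vha36-3 were more than 2-fold lower at day 14, and no c or e gene was more than 2-fold higher. Of 20 members tested, 4 were more than 2-fold lower and 0 more than 2-fold higher, beside 19.0% of all 8433 genes that were lower and 12.8% that were higher, so the count of lower members is close to the background. 1 of the 20, Vha100-5, passed the minimum only through its level at day 2, and of the 19 members with 10 RPKM or more 3 were lower and 0 higher. The median log2 ratio was -0.61 over the members and -0.02 over all genes, and 15 of the 20 lay below the median of all genes. When scaled to nuclear protein-coding reads, the median was -0.19 over the members and 0.43 over all genes, with 1 member, Vha100-5, more than 2-fold lower and 1, Vha16-1, higher, beside 12.1% of all genes that were lower and 26.01% that were higher.

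The more than 2-fold lower members were Vha36-3, with a log2 ratio of -1.41 (95% interval -1.54 to -1.27), Vha68-1, with -1.25 (95% interval -1.29 to -1.20), Vha68-2, with -1.07 (95% interval -1.14 to -1.01), and Vha100-5, which went from 350 reads to 0. Vha36-1 followed with -0.95 (95% interval -1.003 to -0.89), and VhaSFD and Vha55 had log2 ratios of -0.73 and -0.66. On the other side, Vha16-1 had a log2 ratio of 0.72 (95% interval 0.69 to 0.74) and VhaM9.7-b 0.42 (95% interval 0.37 to 0.46). With the control library of day 2 in place of that of Esg>yki, which held midgut transcripts, 3 members were more than 2-fold lower. The median was then -0.65 over 19 members and 0.002 over all 8284 genes, and a share of all genes is not given. The summed flight muscle markers stood at 9112 RPKM at day 2 and 4591 RPKM at day 14, and the 7 fat body markers at 1181 and 875 RPKM. In control the same sums were 11248 and 9904 RPKM for flight muscle and 919 and 2260 RPKM for fat body, and the part of these tissues in the members' levels was not tested.

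In control the members as a group changed by a similar amount relative to all genes. Day 14 over day 2 had a median log2 ratio of -0.19 for 20 members and of 0.34 for all 8327 genes, and 17 of the 20 members lay below the median of all genes. With total reads as the scale, 0 members were more than 2-fold lower and 1, Vha100-4, was higher, with a log2 ratio of 1.201 (95% interval 0.87 to 1.54), beside 4.82% of all genes lower and 15.3% higher. Vha100-4 passed the minimum only through its level at day 14, and of the 19 members with 10 RPKM or more 0 were lower and 0 higher. With TMM or DESeq2 scaling, which bring the median of all genes to about 0, 3 members (Vha13, Vha68-1 and VhaAC45) were more than 2-fold lower and 0 higher, beside 8.45% of all genes lower and 7.74% higher with TMM, and 8.44% and 7.79% with DESeq2. The lowest log2 ratios were those of Vha68-1 (-0.83), VhaAC45 (-0.81) and Vha13 (-0.78), while VhaM9.7-b (0.37), VhaM9.7-c (0.36) and Vha16-1 (0.28) had positive ratios. The members' median less that of all genes was -0.59 in Esg>yki and -0.54 in control. These 2 sets of 20 differ, as only the first held Vha100-5 and only the second Vha100-4. Over the 19 members with 10 RPKM or more, the median was -0.56 in Esg>yki and -0.23 in control. The medians of all genes were -0.02 and 0.34, and 14 and 17 of the 19 lay below them. Which genotype had the larger difference thus depends on the set.

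**Figure D4:**
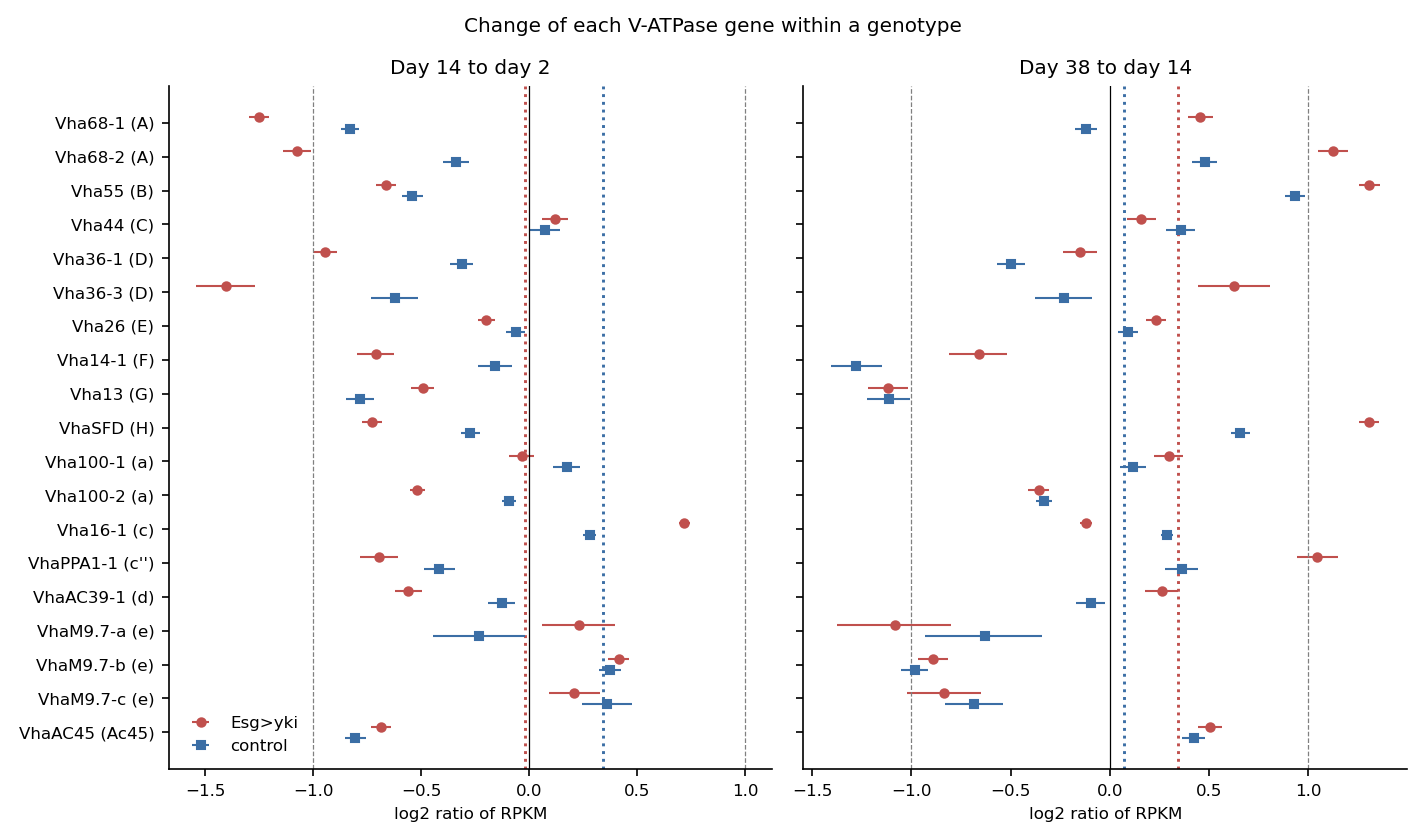
Log2 ratio of RPKM (horizontal axis) of day 14 to day 2 (left) and of day 38 to day 14 (right) for 19 V-ATPase genes with their subunit in brackets: circles, Esg>yki; squares, control; bars, 95% exact intervals for counting error; dotted lines, the median of all genes in that genotype; dashed lines, 2-fold. At day 14 most genes lie left of their dotted line in both genotypes, and Vha16-1 lies furthest right in Esg>yki, at 0.72.

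The 2 genotypes were also compared at the same day. At day 2 they were close, with a median log2 ratio of Esg>yki to control of 0.03 over 20 members and 0.02 over all genes. No member was more than 2-fold lower and 1 was higher, beside 0.951% and 3.67% of all genes. That member was Vha100-5, with 350 reads against 3 and a log2 ratio of 6.51 (95% interval 4.95 to 8.79), which passed the minimum only through the Esg>yki library. Among the members with 10 RPKM or more, VhaPPA1-1 had the largest difference, -0.57 (95% interval -0.64 to -0.50).

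At day 14 the members followed the shift of all genes. The median log2 ratio of Esg>yki to control was -0.33 over 20 members and -0.36 over all 8368 genes, with 2 members more than 2-fold lower and 0 higher, beside 16.9% and 2.99% of all genes. The 2 were Vha100-4, with -2.56 (95% interval -3.06 to -2.10), which passed the minimum only through the control library, and Vha36-3, with -1.03 (95% interval -1.18 to -0.89), the single lower member of the 19 with 10 RPKM or more. With TMM scaling, which brings the median of all genes to about 0, 1 member (Vha100-4) was more than 2-fold lower and 1 (VhaM9.7-a) higher, beside 8.10% and 6.28% of all genes. With nuclear protein-coding reads as the scale, Vha100-4 was lower and 2 (Vha16-1 and VhaM9.7-a) were higher, beside 6.86% and 8.89%. At that day the flight muscle markers summed to 4591 RPKM in Esg>yki and 9904 RPKM in control and the fat body markers to 875 and 2260 RPKM, and the part of these tissues was not tested.

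Single members stood on both sides of that shift. VhaPPA1-1 (-0.85), Vha100-2 (-0.66), Vha14-1 (-0.61), Vha68-1 (-0.60) and Vha68-2 (-0.59) lay below the median of all genes. VhaM9.7-a (0.67), Vha16-1 (0.56), Vha13 (0.47) and Vha44 (0.26) lay above it. Each of the 2 groups held both V1 and V0 genes.

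After the return to 18 °C several Esg>yki levels were higher by day 20. Between day 14 and day 20 the log2 ratio was 1.31 for Vha68-2, 1.06 for VhaSFD, 1.05 for Vha55 and 0.89 for VhaPPA1-1, but 0.08 for Vha68-1 and -0.06 for Vha16-1. The median was 0.38 over 19 members and 0.42 over all 8474 genes, with 9 members above the latter. The preceding step, day 8 to day 14, had a median of -0.40 over the members and -0.36 over all genes, with Vha100-2 at -1.33 and Vha68-2 at -1.25. From day 20 on, the medians of the members for successive libraries were -0.06, -0.02 and -0.22. Those of all genes were -0.11, 0.12 and -0.11.

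From day 14 to day 38, members of Esg>yki passed 2-fold in both directions by total reads. Of 19 tested, 4 were more than 2-fold higher and 2 lower, beside 22.0% of all 8566 genes that were higher and 5.71% that were lower. The count of higher members is thus close to the background. The median was 0.23 over the members and 0.35 over all genes. The 4 were Vha55 (1.31), VhaSFD (1.31), Vha68-2 (1.13) and VhaPPA1-1 (1.05), and the 2 were Vha13 (-1.12, 95% interval -1.22 to -1.02) and VhaM9.7-a (-1.08, 95% interval -1.38 to -0.80). These counts depended on the scaling, as 0 were higher and 5, 4 and 5 lower with TMM, DESeq2 and nuclear protein-coding scaling. The shares of all genes that were lower were then 12.8%, 11.3% and 14.7%, and those higher 11.9%, 13.2% and 11.1%. With day 32 in place of day 38, 0 were lower and 2 higher. The median was then 0.39 over the members and 0.45 over all genes, and a share of all genes is not given.

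In control, of 20 members tested, 3 were more than 2-fold lower at day 38 than at day 14 and 0 were higher, beside 8.94% and 7.77% of all 8623 genes. These were Vha100-4 (-2.40, 95% interval -3.004 to -1.84), which passed the minimum only through day 14, Vha14-1 (-1.28, 95% interval -1.41 to -1.15) and Vha13 (-1.11, 95% interval -1.22 to -1.01). Vha55 had the largest positive log2 ratio, 0.94 (95% interval 0.88 to 0.99). The median was -0.11 over the members and 0.07 over all genes.

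At day 38 the genotypes were again close. No member was more than 2-fold lower or higher in Esg>yki than in control, beside 1.51% and 3.73% of all genes. The median log2 ratio was 0.06 over 19 members and -0.06 over all genes. Vha100-2 was the furthest below, with -0.69 (95% interval -0.75 to -0.63), and Vha13 the furthest above, with 0.47 (95% interval 0.34 to 0.60). The Esg>yki library of day 14 enters 3 of the 7 comparisons and the control library of day 14 also 3, so these are not independent of each other.

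Apart from Vha100-4, the members furthest below their day 14 level at day 38 were short genes. The 7 tested members with under 1300 bases of exon, namely Vha13, Vha14-1, Vha36-1, Vha36-3, VhaM9.7-a, VhaM9.7-b and VhaM9.7-c, had a median log2 ratio of -0.68 in control and -0.83 in Esg>yki. The short members did not all move alike. In Esg>yki Vha36-3 was higher at day 38, with 0.63, and Vha36-1 had -0.15, closer to no change than the long gene Vha100-2, with -0.36. Over all genes of that length the median was -0.41 in control and 0.16 in Esg>yki, and over genes with 3000 bases or more it was 0.45 and 0.44. The length class was chosen after these values were seen, and the part of transcript length in these levels was not tested. Among genes with 2000 bases of exon or more, the members' median less that of all genes was -0.02 in control and -0.04 in Esg>yki.

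**Figure D5:**
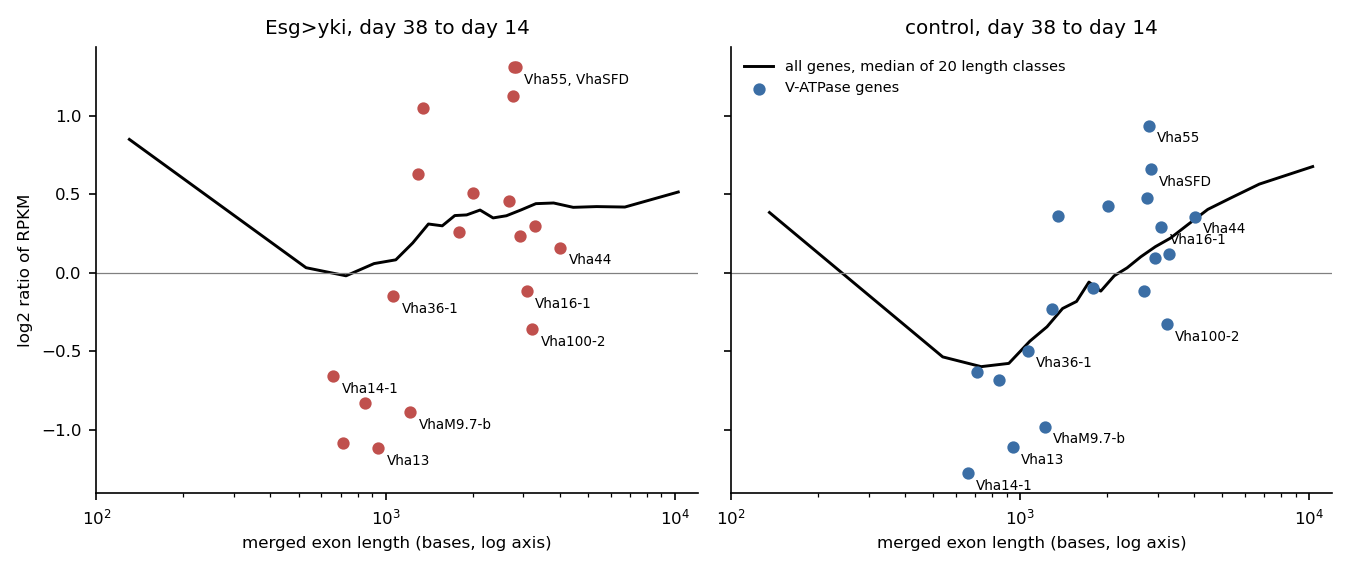
Log2 ratio of RPKM of day 38 to day 14 (vertical axis) against merged exon length in bases (horizontal log axis) for 19 V-ATPase genes (points, some named) in Esg>yki (left) and control (right), with the median of all genes in 20 length classes as a line. In control the line rises with length over most of its course and the short members lie along or below it, and in Esg>yki the short members Vha13, Vha14-1 and VhaM9.7-b lie well below it.

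Genes that work with the pump were read from lists. Of 11 measured genes for assembly and control of the V-ATPase, which include Mitf, the fly homolog of the lysosomal regulator TFEB, 10 were tested from day 2 to day 14. In Esg>yki 0 were more than 2-fold lower and 0 higher, beside 19.0% and 12.8% of all genes. The median log2 ratio was 0.07 over the list and -0.02 over all genes. In control 0 were lower and 2, the Rag GTPase gene RagA-B and the OXR1 homolog mtd, were higher, beside 4.82% and 15.3% of all genes. The median was 0.22 over the list and 0.34 over all genes. Mitf stood at 43.2, 59.2 and 47.2 RPKM in control at day 2, 14 and 38 and at 50.1, 64.4, 67.5, 62.5, 58.2, 52.7 and 40.8 RPKM in Esg>yki from day 2 to day 38, highest at day 14 in each genotype. Rbcn-3A, a subunit of the Rabconnectin complex that assembles the pump, stood at 23.0, 18.4 and 38.2 RPKM in control and at 21.3, 27.8, 13.9, 27.8, 25.6, 28.4 and 38.9 RPKM in Esg>yki, lowest at day 14 in each.

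Of 16 lysosomal genes, 15 were tested from day 2 to day 14. In Esg>yki 5 were more than 2-fold lower, namely 26-29-p, Cln3, Cln7, Hexo1 and Npc2a, and 1, the membrane protein gene Lamp1, was higher, with a median of -0.45. In control 2, Cln3 and Cln7, were lower and Lamp1 was higher, with a median of 0.15. The background shares are those given above for these comparisons. Lamp1 stood at 138, 286 and 257 RPKM in control at day 2, 14 and 38 and at 148, 244, 320.4, 259, 279, 282 and 253 RPKM in Esg>yki from day 2 to day 38, so that day 14 was about 2-fold above day 2 in both. Cln7, a lysosomal transporter gene, stood at 19.95, 9.31 and 15.0 RPKM in control and at 19.3, 13.8, 4.10, 7.23, 10.3, 9.91 and 12.6 RPKM in Esg>yki, lowest at day 14 in each. Of Esg>yki against control at day 14, 3 of the 15 lysosomal genes (26-29-p, Cln7 and Gba1b) were more than 2-fold lower, and 0 of the 10 genes of assembly and control. Of all genes, 16.9% were lower there. The counts of both lists were taken by total reads only. With nuclear protein-coding reads, the median of all genes from day 2 to day 14 in Esg>yki was 0.43 in place of -0.02. For Esg>yki against control at day 14 it was 0.11 in place of -0.36. From day 2 to day 14, the calls of Npc2a (-1.03), Hexo1 (-1.13) and 26-29-p (-1.32) may therefore depend on the scaling. So may the 3 against control at day 14.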

How the data were processed

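The authors depleted ribosomal RNA, sequenced each library in 4 pools as single reads of 75 bases, aligned them with STAR 2.7.2b to FlyBase release 6.30 and analysed the counts with DESeq2 1.34.0. The deposited values are estimated counts per gene in steps of 0.25. Multiplied by 4 they are whole numbers in all 10 libraries and were used as reads, on the assumption that they are means over the 4 pools. RPKM used merged exon lengths of Ensembl release 115, found for 99.7% of gene identifiers, and the total of reads on genes. Genes that reached 2 RPKM in either library of a pair were compared, a log2 ratio beyond 1 was counted, and 0 reads were raised to 3. Since each condition had 1 library, no test was run. Exact 95% intervals on reads (scipy 1.17.1) cover counting error only. Alternatives were TMM (edgeR 4.0.16) and DESeq2 1.42.0 scaling, nuclear protein-coding reads, a pseudocount, no minimum level and neighbouring days. Every gene with a Vha symbol is accounted for, and those with 10 RPKM in any library are given by library. Members and lists were chosen with earlier results of these data known. Subunits were assigned by hand from textbook knowledge. Vma21 was not matched. No sequences were used here.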

Additional observations from a re-analysis of the deposited data

Results flagged for a closer look

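By total reads, 5 changes had opposite directions in the 2 genotypes, each with an interval for counting error that excludes 0. With 1 library at each day, the differences were not tested. For day 38 against day 14, the median of all genes was 0.35 in Esg>yki and 0.07 in control, and with TMM scaling -0.08 and -0.04. Directions of ratios near that shift, as for VhaAC39-1 and Vha68-1, may therefore depend on the scaling. From day 2 to day 14 VhaM9.7-a had a log2 ratio of 0.23 in Esg>yki and -0.23 in control, a difference of 0.46, where the median difference over all genes was -0.37. The other 4 concern day 38 against day 14, where the median difference over all genes was 0.28. Vha36-3 had 0.63 in Esg>yki and -0.23 in control, a difference of 0.86. Vha68-1 had 0.46 and -0.12, a difference of 0.58, and VhaAC39-1 had 0.26 and -0.10, a difference of 0.36. Vha16-1 went the other way, with -0.12 in Esg>yki and 0.29 in control, a difference of -0.41.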

How the results depend on the processing

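An analysis paired by day over the 3 days that both genotypes share was not run, as the labels give no shared replicate numbers. Values below are counts of members past 2-fold, or the members' median log2 ratio less that of all genes. Shares of all genes are not given for the settings with a pseudocount, no minimum level, another library or long genes. Counts under these settings therefore have no background beside them and are not read as results about the members. For day 14 against day 2 in Esg>yki, 1 member was lower with nuclear protein-coding reads and 1 with day 8 in place of day 14, and 1 was higher with nuclear protein-coding reads and 2 with no minimum level. The median was -0.28 with day 8, -0.65 with the control library of day 2 and -0.81 for genes with 2000 bases of exon or more. In control, 3 were lower with TMM and 3 with DESeq2 scaling, and 1 with no minimum level. There 0 were higher with TMM, with DESeq2 scaling and with a pseudocount of 1 RPKM, and 2 with no minimum level, where the median was -0.47, and it was -0.46 for the long genes. For day 38 against day 14 in Esg>yki, 5, 4 and 5 were lower and 0 higher with TMM, DESeq2 and nuclear protein-coding scaling, 4 were lower with no minimum level, 0 were lower and 2 higher with day 32, and 0 long genes were lower, with a median of -0.039. In control, 1 long gene was lower, with a median of -0.020, and 1 member was higher with no minimum level. Between genotypes, no minimum level gave 2 lower members at day 2 with a median of -0.049, 5 at day 14 with a median of -0.053, both reversed in sign, and 2 at day 38. At day 14, 1 was lower with TMM, DESeq2, nuclear protein-coding reads, the pseudocount and among long genes, 1 was higher with TMM, and 2 were higher with nuclear protein-coding reads. The cause of these shifts was not tested. Shares from reads in place of RPKM moved in 21 of 40 values, with Vha36-3 at 21.4% of subunit D and VhaM9.7-c at 13.0% of subunit e in Esg>yki at day 38. The long-gene setting and the exchange of the day 2 library were chosen after seeing the data. Intervals cover counting error only, and with 1 library per condition the spread between flies is unknown.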

Other observations

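2 genes of the pump do not carry a Vha symbol in the files and were not counted among the members. ATP6AP2, the accessory subunit known in vertebrates as the prorenin receptor, stood at 137, 58.2 and 62.3 RPKM in control at day 2, 14 and 38. In Esg>yki it stood at 128, 110.0, 39.8, 114, 114, 96.9 and 72.4 RPKM from day 2 to day 38, with its lowest level at day 14. From day 2 to day 14 its level was reduced in each genotype, as was that of VhaAC45, the other accessory gene. CG31030, a relative of VhaAC45, ranged from 8.32 RPKM in Esg>yki at day 14 to 20.05 RPKM in Esg>yki at day 2.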
